A study of Rattus norvegicus with 11 samples.

Results

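Occludin, the ZO proteins and the adherens junction genes were followed through the ileum of rats with severe acute pancreatitis (SAP). They are 9 genes, Ocln, Marveld2, Marveld3, Tjp1, Tjp3, Cgn, F11r, Cdh1 and Ctnnb1, chosen by gene symbol, and all 9 were found among the 24481 genes with read counts. Epithelial cells of the gut are held together by a tight junction, which limits what passes between cells, and beneath it by an adherens junction, which couples the cells mechanically. Occludin, tricellulin (Marveld2) and Marveld3 are membrane proteins of the tight junction that share a MARVEL domain, and F11r (JAM-A) is an immunoglobulin-type adhesion protein there. ZO-1 (Tjp1), ZO-3 (Tjp3) and cingulin (Cgn) form the plaque that ties these membrane proteins to actin, while E-cadherin (Cdh1) with beta-catenin (Ctnnb1) makes up the core of the adherens junction. Loosening of these contacts is a known feature of the gut barrier in pancreatitis, and the samples allowed the RNA of each gene to be compared across control, diseased and treated rats.

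RNA of ileum tissue was sequenced from 3 control rats, 4 rats of the SAP group and 4 rats of the JZL184 group, all SD rats of 6 to 8 weeks that the methods describe as male. SAP was induced in both the SAP and the JZL184 group by 3% sodium taurocholate infused into the pancreatic duct. At 24 h after surgery the JZL184 group was injected intraperitoneally with JZL184, a selective inhibitor of monoacylglycerol lipase (MAGL), at 10 mg/kg, and the control and SAP groups received vehicle, and tissue was taken 24 h later. Whether the control rats had sham surgery is not given, the labels name a control plasmid for control rats, and the library titles of the SAP group contain "oil", so the groups used here follow the group names of the treatment text.

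The deposited values were read counts per gene and FPKM, in which reads are divided by gene length and by library size. Between 26341299 and 33847135 reads per library lay on genes. Control libraries 1 and 2 differed far less than any other pair of a group, with a chi-square per gene of 2.81 against 77.49 to 563.06, so their reads were summed and counted as 1 sample, which left 2 control samples. SAP library 2 held 20 reads on 3 Y-linked genes where the other 10 libraries held 1222 to 4665, against the description of the rats as male, and results without it are given below. SAP libraries 1 and 2 stood apart from the remaining libraries in several of the junction genes and in their trend over gene length. The split was not limited to the junction genes. Over all genes the chi-square per gene was 85.46 between SAP libraries 1 and 2 and 99.09 between 3 and 4. Across these pairs it was 337.03 to 563.06. The paper also describes its SAP samples as falling into 2 groups by their differentially expressed genes. The labels name intestinal epithelial cells, and the epithelial markers were abundant in each sample, and smooth muscle markers, at sums of 398 to 2169 FPKM, were present as well, with ileum tissue given as the source. In such bulk tissue, fewer cells of a type and less RNA per cell cannot be told apart.

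The junction genes covered a wide range of levels on the FPKM scale, which corrects for gene length. Averaged over the 10 samples, F11r was the most abundant at 417 FPKM, followed by Cdh1 at 149, Ctnnb1 at 96.7, Cgn at 56.2 and Ocln at 38.2 FPKM. Tjp3 averaged 18.9, Marveld3 7.47, Tjp1 3.45 and Marveld2 1.34 FPKM. The ranges of neighbours in this order overlapped in every case when all libraries were pooled. Within single libraries F11r lay above Cdh1, Cdh1 above Ctnnb1 and Tjp1 above Marveld2 in each of the 11 libraries. Tjp1 passed Marveld3 in SAP library 1 alone, and Marveld3 passed Tjp3 in SAP library 2 alone. The genes also differed in how steady they were. The highest sample held 17.3 times the lowest for Tjp1, 14.6 times for Cgn, 13.8 times for Marveld2 and 7.09 times for Ocln, but 1.79 times for Tjp3, 1.83 times for Cdh1 and 1.98 times for Ctnnb1. F11r and Marveld3 lay between, at 5.23 and 3.79 times.

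The promoter sequences of 3 plaque and membrane genes of nearly equal length (5.62 kb for Ocln, 5.9 kb for Cgn and 5.76 kb for Tjp3, as estimated from counts and FPKM) are shown because Ocln and Cgn varied widely between libraries and Tjp3 did not. They were picked after these values were seen. Each is the window of 250 bases before the RefSeq start, 5′ to 3′ on the gene's strand, in the GRCr8 assembly, whereas the reads were aligned to mRatBN7.2. Capitals mark GC boxes (GGGCGG or CCGCCC) and E-boxes of the type bound by Snail (CAGGTG or CACCTG), both searched on either strand. The windows are those of Ocln at chr2:33441199-33441448 on the minus strand, Cgn at chr2:185023636-185023885 on the minus strand and Tjp3 at chr7:9084174-9084423 on the plus strand.
Ocln: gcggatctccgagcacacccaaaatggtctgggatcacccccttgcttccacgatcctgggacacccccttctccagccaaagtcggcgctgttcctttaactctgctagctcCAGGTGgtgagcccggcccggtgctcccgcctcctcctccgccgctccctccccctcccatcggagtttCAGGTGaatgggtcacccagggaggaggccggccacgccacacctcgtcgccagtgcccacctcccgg
Cgn: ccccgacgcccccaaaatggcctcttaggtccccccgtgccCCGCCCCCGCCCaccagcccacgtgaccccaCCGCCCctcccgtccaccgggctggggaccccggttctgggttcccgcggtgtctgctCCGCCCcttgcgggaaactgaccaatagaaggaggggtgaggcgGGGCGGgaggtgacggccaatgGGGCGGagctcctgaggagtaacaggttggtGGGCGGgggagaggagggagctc
Tjp3: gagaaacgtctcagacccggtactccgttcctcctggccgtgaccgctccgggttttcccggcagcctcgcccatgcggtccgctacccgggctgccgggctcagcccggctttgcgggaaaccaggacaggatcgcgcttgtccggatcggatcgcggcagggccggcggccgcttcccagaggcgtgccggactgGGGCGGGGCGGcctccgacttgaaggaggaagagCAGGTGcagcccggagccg
The Ocln window held 2 E-boxes and 0 GC boxes, the Cgn window 7 GC boxes and 0 E-boxes, and the Tjp3 window 2 overlapping GC boxes and 1 E-box. Of 33469 rat promoter windows of this length, 30.5% held a GC box and 15.9% an E-box of this kind. G and C made up 66.4% of the Ocln window, 71.6% of the Cgn window and 71.2% of the Tjp3 window. RefSeq windows were matched for 7 of the 9 genes, all but Cdh1 and Marveld3, and the F11r window also held 1 motif of each kind. The windows of Tjp1, Marveld2 and Ctnnb1 held 0 GC boxes and 0 E-boxes, although Tjp1 and Marveld2 varied widely between libraries. These letter matches describe the windows and were not tied to the expression values.

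Among the MARVEL proteins, Ocln measured 14.5, 13.7 and 22.6 FPKM in the 3 control libraries, 73.3, 100.05, 24.7 and 19.2 FPKM in SAP libraries 1 to 4, and 37.2, 14.6, 26.3 and 49.6 FPKM in JZL184 libraries 1 to 4. Group means were 18.3 ± 5.98 FPKM in control (SD, n = 2), 54.3 ± 39 FPKM for SAP (SD, n = 4) and 31.9 ± 15 FPKM for JZL184 (SD, n = 4). SAP libraries 1 and 2 were the highest of all, while SAP libraries 3 and 4 lay among the control and JZL184 values, so the groups overlapped. Marveld2, tricellulin, which seals the points where 3 cells meet, followed the same libraries at a much lower level. It measured 0.66, 0.66 and 0.49 FPKM in control, 3.54, 4.84, 0.88 and 0.41 in SAP and 1.13, 0.41, 0.65 and 0.35 in JZL184. Only 26 to 407 reads per library lay on Marveld2, so counting error adds to its spread more than for the other members. Ocln and Marveld2 lie near each other on chromosome 2, with 3 RefSeq genes between them, of which 0 code for a protein.

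Marveld3, the remaining MARVEL protein of the junction, behaved differently. Its FPKM was 7.85, 9.27 and 7.27 in control, 10.4, 16.8, 5.61 and 7.07 in SAP, and 4.69, 4.51, 5.35 and 4.44 in JZL184. The JZL184 values were the tightest of any group for this gene (4.75 ± 0.415, SD, n = 4) and each lay below the control values (7.91 ± 0.912, SD, n = 2) and below all SAP values (9.96 ± 4.98, SD, n = 4), though the lowest SAP library exceeded the highest JZL184 library by little. SAP library 2 was again the highest. Relative to Marveld3, Ocln stood at 1.65 and 3.1 in control, at 7.07, 5.95, 4.41 and 2.71 in SAP and at 7.92, 3.23, 4.92 and 11.2 in JZL184, a ratio of FPKM values within each sample, so each JZL184 sample lay above both control samples. This ratio was looked at without a test.

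In the plaque, the ZO scaffolds diverged. Tjp1, ZO-1, measured 1.07, 0.99 and 1.3 FPKM in control, 11.1, 12.8, 1.48 and 1.41 FPKM in SAP and 1.85, 0.74, 1.3 and 1.43 FPKM in JZL184. SAP libraries 1 and 2 stood far above everything else, SAP libraries 3 and 4 were barely above the highest control library, and the JZL184 group covered the control range. Tjp3, ZO-3, a paralog largely found in epithelia, measured 18.2, 17.7 and 16.2 FPKM in control, 23.1, 15.4, 19.1 and 22 in SAP and 14.9, 22.5, 13.6 and 24.4 in JZL184. No library stood apart and the groups overlapped (17.1 ± 1.19, n = 2, 19.9 ± 3.46, n = 4, and 18.9 ± 5.39, n = 4, means ± SD). The ratio of Tjp1 to Tjp3 FPKM within a sample was 0.0575 and 0.0801 in control and 0.124, 0.0329, 0.0954 and 0.0586 in JZL184. In SAP it was 0.481, 0.835, 0.0773 and 0.0641, so ZO-1 RNA approached that of ZO-3 in SAP libraries 1 and 2 alone.

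Cgn, cingulin, which links ZO proteins to the actomyosin ring, measured 42.3, 42.8 and 31 FPKM in control, 167, 138.6, 43.6 and 25.7 in SAP and 32.6, 11.5, 29 and 40.5 in JZL184. SAP libraries 1 and 2 were highest and JZL184 library 2 lowest, and the groups overlapped (36.8 ± 8.14, n = 2, 93.7 ± 69.6, n = 4, and 28.4 ± 12.3, n = 4, means ± SD). The adhesion protein F11r went the other way in the same libraries. Its FPKM was 432, 434 and 307 in control, 210.3, 182, 394 and 531 in SAP and 272, 954, 292 and 591 in JZL184. The lowest values of all were those of SAP libraries 1 and 2 and the highest was that of JZL184 library 2, the library in which Cgn was lowest.

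The adherens junction genes were steady by comparison. Cdh1 measured 106, 105 and 118 FPKM in control, 166, 140.1, 132 and 137 in SAP and 151, 194, 157.5 and 187 in JZL184. Each SAP and JZL184 value lay above each control value, and the JZL184 and SAP ranges overlapped at SAP library 1 on this scale. The means were 112 ± 8.61 (SD, n = 2), 144 ± 14.9 (SD, n = 4) and 172 ± 21.1 (SD, n = 4) in the order control, SAP and JZL184. Ctnnb1, which binds the tail of E-cadherin and also carries the Wnt signal to the nucleus, measured 79.5, 82.4 and 107.6 FPKM in control, 125, 103.5, 107.8 and 84.5 in SAP and 120.4, 76.9, 63.2 and 96.3 in JZL184. Its groups overlapped throughout.

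**Figure D1:**
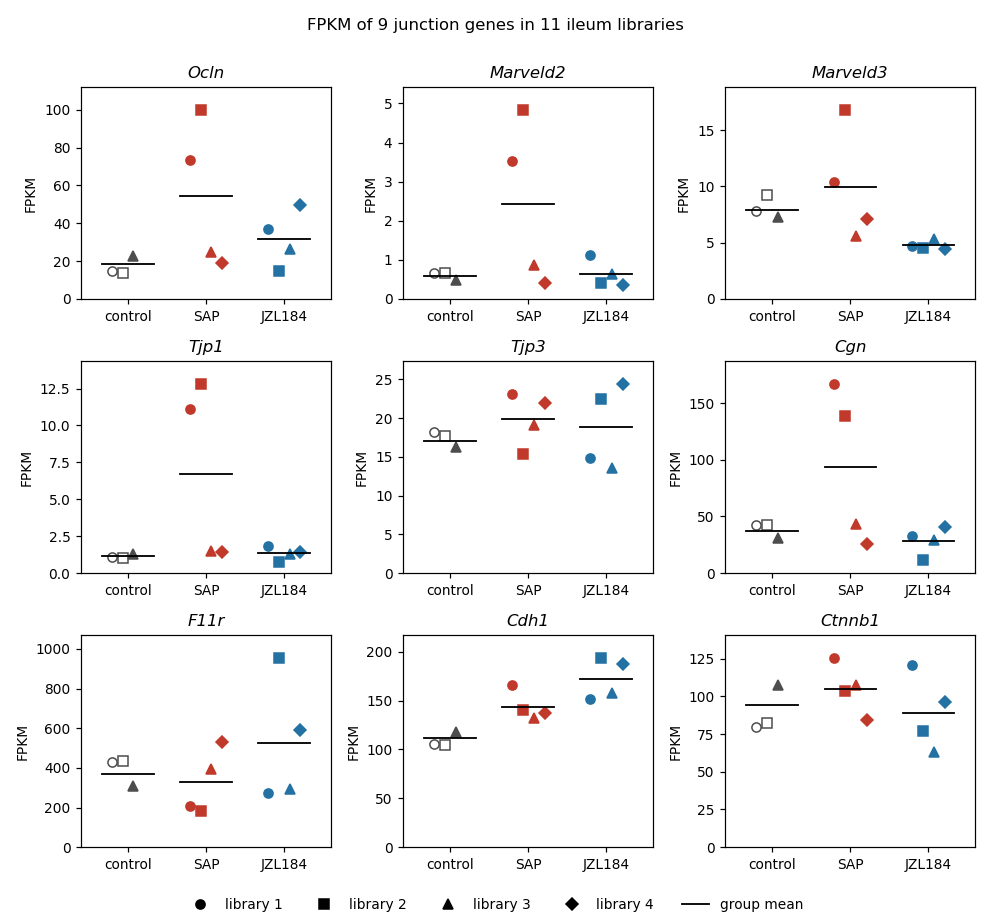
FPKM (vertical axis) of the 9 junction genes in control, SAP and JZL184 libraries, with marker shape giving the library number, lines giving group means and open markers giving control libraries 1 and 2, which were averaged to 1 sample. SAP libraries 1 and 2 lie above all other libraries for Ocln, Marveld2, Tjp1 and Cgn (Tjp1 at 11.1 and 12.8 FPKM) and below them for F11r (210.3 and 182 FPKM), while Tjp3, Cdh1 and Ctnnb1 stay within a narrow range.

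The comparison of SAP with control asked how the disease alters these genes. Tjp1, Marveld2, Ocln and Cgn had higher means in SAP, with the highest values in SAP libraries 1 and 2, but none of the 9 genes passed the test, and Tjp3, Marveld3, Cdh1 and Ctnnb1 differed little. Fold changes were fitted to normalised read counts with edgeR, and a gene was called at an adjusted p below 0.05 over all genes and a fold change above 2 or below 0.5. By this rule 0 of the 9 genes were called, and 0 of all 16029 genes tested (0%). DESeq2 called 208 genes and limma-voom 14. Without adjustment, 1 of the 9 (Tjp1) and 9.09% of all genes (1457) were below 0.05. The median log2 fold change was 0.19 over the junction genes and 0.06 over all genes.

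The log2 fold change of Tjp1 in SAP against control was 2.30 ± 0.98 (SE), a fold of 4.91, with adjusted p = 0.459. Marveld2 followed at 1.81 ± 0.93, Ocln at 1.36 ± 0.66 and Cgn at 1.11 ± 0.71 (adjusted p = 0.459, 0.459 and 0.476). These 4 estimates had the largest errors of the 9, and their genes split the SAP group, with SAP libraries 1 and 2 highest. F11r split it in the other direction, with these libraries lowest. F11r was at -0.31 ± 0.53, and the log2 fold changes of Cdh1, Marveld3, Tjp3 and Ctnnb1 were 0.19, 0.12, 0.06 and -0.01, with adjusted p between 0.714 and 0.984. Normalised counts of 2 genes, Tjp1 and Cdh1, did not overlap between the groups and were higher in SAP, against 11.3% of all genes that did so in this direction. Of the junction genes 0 were apart with lower values in SAP, against 11.9% of all genes. With counts normalised over all 3 groups together, SAP library 2 (565 CPM, reads scaled to normalised library size) fell just below a control sample (569 CPM) for Cdh1.

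The position of Tjp1 depended on the analysis and on the SAP libraries. DESeq2 with control libraries 1 and 2 as separate samples called it (log2 fold change 2.34, adjusted p = 0.0198), along with 1434 of all 23265 genes tested in that analysis, and over the alternatives its adjusted p ranged up to 0.944. Without SAP library 2 the log2 fold changes were 1.82 for Tjp1, 1.28 for Marveld2, 0.94 for Ocln and 0.90 for Cgn, each with adjusted p = 0.736. With SAP libraries 3 and 4 alone, a comparison added after the values were seen, they were 0.25 for Tjp1, 0.05 for Marveld2, 0.20 for Ocln and -0.17 for Cgn, so that 0 of the 9 genes were called and the adjusted p lay between 0.889 and 0.994. Over all genes 74 of 15362 were called in that analysis.

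The comparison of JZL184 with SAP asked how treatment alters the diseased ileum, and used the same SAP libraries as the comparison above. Tjp1, Marveld2, Cgn and Marveld3 had lower means in JZL184 and F11r and Cdh1 higher ones, but 0 of the 9 genes passed the test. Again 0 of 15308 genes were called (0%), while DESeq2 called 1283 and limma-voom 699. Of the 9 genes, 4 (Tjp1, Cgn, Marveld2 and Marveld3) had an unadjusted p below 0.05, as had 21.3% of all genes (3267). The median log2 fold change was -0.56 over the junction genes and -0.05 over all genes, and 3 of 9 were above 0, against 47.4% of all genes. The median over the junction genes was -0.11 without SAP library 2, -0.07 in limma-voom and -0.05 with SAP libraries 3 and 4 alone.

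Tjp1 had a log2 fold change of -2.11 ± 0.67 (SE, adjusted p = 0.143) in JZL184 against SAP, beside 2.30 in SAP against control. Marveld2 was at -1.72 ± 0.68 and Cgn at -1.52 ± 0.56, beside 1.81 and 1.11, and their adjusted p values were 0.197 and 0.177. The JZL184 values of all 3 genes overlapped those of SAP libraries 3 and 4. Marveld3 was at -0.87 ± 0.31 (adjusted p = 0.171), beside 0.12, and was the only one of the 9 whose JZL184 counts all lay below the SAP counts, as did those of 5.59% of all genes. Cdh1, at 0.44 ± 0.25 (adjusted p = 0.323), was the only one whose JZL184 counts all lay above, as did 6.23% of all genes. The estimate was -0.56 ± 0.52 for Ocln, 0.85 ± 0.56 for F11r, 0.10 ± 0.31 for Tjp3 and -0.07 ± 0.26 for Ctnnb1, with adjusted p between 0.381 and 0.888.

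DESeq2 called Tjp1 in JZL184 against SAP at a log2 fold change of -2.12 with adjusted p = 0.0219, and the highest adjusted p over the alternatives was 0.914. Without SAP library 2 the log2 fold changes were -1.61 for Tjp1, -1.16 for Marveld2, -1.28 for Cgn and -0.55 for Marveld3. With SAP libraries 3 and 4 alone they were -0.09, 0.02, -0.25 and -0.37 in the same order, and Ocln moved from -0.56 to 0.58. Both the SAP and the JZL184 differences of Tjp1, Marveld2 and Cgn were thus near 0 or much smaller without SAP libraries 1 and 2. Cdh1 had a log2 fold change of 0.42 against SAP libraries 3 and 4 alone and 0.40 without SAP library 2, near the 0.44 with all libraries. Ocln was at -0.11 without SAP library 2. F11r was at 0.30 without JZL184 library 2 and at 1.26 without SAP library 4.

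The comparison of JZL184 with control asked how far treated diseased rats differ from healthy ones. Marveld3 was lower and Cdh1 higher in each JZL184 sample than in each control sample, and the other genes overlapped. Here edgeR called 343 of 15916 genes (2.16%) but 0 of the 9, and 4178 genes (26.3%) and 1 of the 9 (Marveld3) had an unadjusted p below 0.05. Marveld3 was at a log2 fold change of -0.78 ± 0.25 (SE), a fold of 0.581, with adjusted p = 0.107. Its groups were apart in the lower direction, as were those of 19.3% of all genes. With control libraries 1 and 2 as separate samples its adjusted p was 0.0218 in edgeR and 0.00644 in DESeq2. These 2 values treat libraries that differed far less than any other pair as separate rats, so they can be too small. With the 2 libraries summed it was 0.0405 in limma-voom. The fold change stayed above the threshold of 0.5 in each of these analyses, so the gene was not called. Over all alternatives the log2 fold change of Marveld3 lay between -0.96 and -0.60.

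Cdh1 had a log2 fold change of 0.61 ± 0.31 (adjusted p = 0.249) in JZL184 against control, and 18.9% of all genes were apart in this direction. For Cdh1 the estimate stayed between 0.46 and 0.70 over the alternatives, and the lowest adjusted p was 0.0631. Ocln was at 0.76 ± 0.46, F11r at 0.53 ± 0.60 and Cgn at -0.44 ± 0.43, with adjusted p of 0.321, 0.602 and 0.539. Tjp1, Tjp3, Marveld2 and Ctnnb1, at 0.14, 0.13, 0.06 and -0.11, had the smallest differences. Tjp1 and Marveld2, the members with the highest fold changes in SAP, were thus among those nearest to control in the JZL184 group. The median log2 fold change was 0.13 over the junction genes and 0.08 over all genes.

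**Figure D2:**
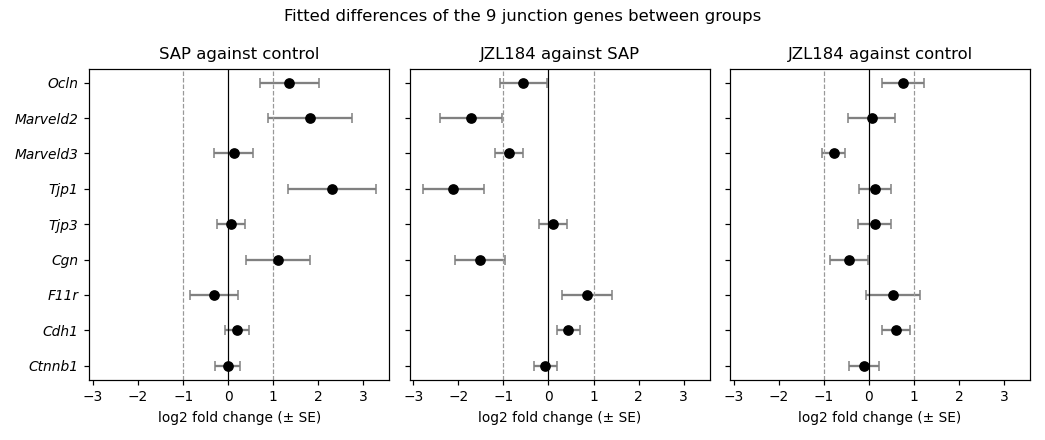
Log2 fold changes of normalised read counts (horizontal axis, points ± SE from edgeR) of the 9 junction genes in SAP against control (4 and 2 samples), JZL184 against SAP (4 and 4) and JZL184 against control (4 and 2), with dashed lines at the fold thresholds of 2 and 0.5. Tjp1 has the highest estimate in the first panel (2.30) and the lowest in the second (-2.11), and Marveld3 is the lowest in the third (-0.78), but 0 of the 9 genes were called in any panel.

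Gene length was compared because the levels of long genes relative to short genes differed between libraries. The cause of this difference was not tested. Over 14169 genes, the trend in SAP libraries 1 and 2 ran from a log2 ratio to the control mean of -0.80 and -0.85 at a length of 1.09 kb to 0.80 and 0.86 at 8.32 kb. In SAP libraries 3 and 4 it ran only from -0.05 and 0.05 to 0.11 and 0.03. JZL184 libraries 1, 3 and 4 had weaker trends of the same direction as SAP libraries 1 and 2, from -0.37, -0.25 and -0.24 to 0.36, 0.27 and 0.30, and library 2 had 0.08 at both ends. The longest member, Tjp1 (8.47 kb), and the shortest, F11r (2.05 kb), were also the members with the highest and the lowest ratios in SAP libraries 1 and 2. For Tjp1 the log2 ratio to the control mean was 2.94 and 3.11 in these libraries, where the trend at its length was 0.81 and 0.87. For F11r it was -1.15 and -1.39, where the trend was -0.40 in both.

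Members of similar length did not all move together. Ocln, at 1.69 and 2.11 in SAP libraries 1 and 2, and Cgn, at 1.85 and 1.55, were well above the trend of 0.49 to 0.57 at their lengths. Tjp3, of nearly the same length, was at 0.11 and -0.51, below a trend of 0.51 and 0.55. Marveld2, with only 2.77 kb, was at 2.29 and 2.71, where the trend was -0.18 and -0.17. Cdh1 (4.78 kb) at 0.25 and -0.02 and Ctnnb1 (4.19 kb) at 0.10 and -0.21 lay below the trend, which was 0.36 and 0.39 for Cdh1 and 0.24 and 0.27 for Ctnnb1, and Marveld3 (3.57 kb) was at 0.06 and 0.72, on the trend of 0.07 and above that of 0.08.

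With each library's trend removed, the log2 fold change in SAP against control went from 2.30 to 1.51 for Tjp1, from 1.36 to 0.91 for Ocln and from 1.11 to 0.60 for Cgn. Marveld2 went from 1.81 to 1.89. Tjp3 turned from 0.06 to -0.23 and Cdh1 from 0.19 to -0.04. In JZL184 against SAP the values after removal were -1.65 for Tjp1, -1.74 for Marveld2, -1.22 for Cgn and -0.76 for Marveld3, and in JZL184 against control -0.75 for Marveld3 and 0.56 for Cdh1. The estimates of Tjp1, Ocln and Cgn were thus smaller without the trend and that of Marveld2 was not, and 0 of the 9 genes were called with or without it. With the trend removed, 0 genes in all were called in SAP against control, 21 in JZL184 against SAP and 349 in JZL184 against control.

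**Figure D3:**
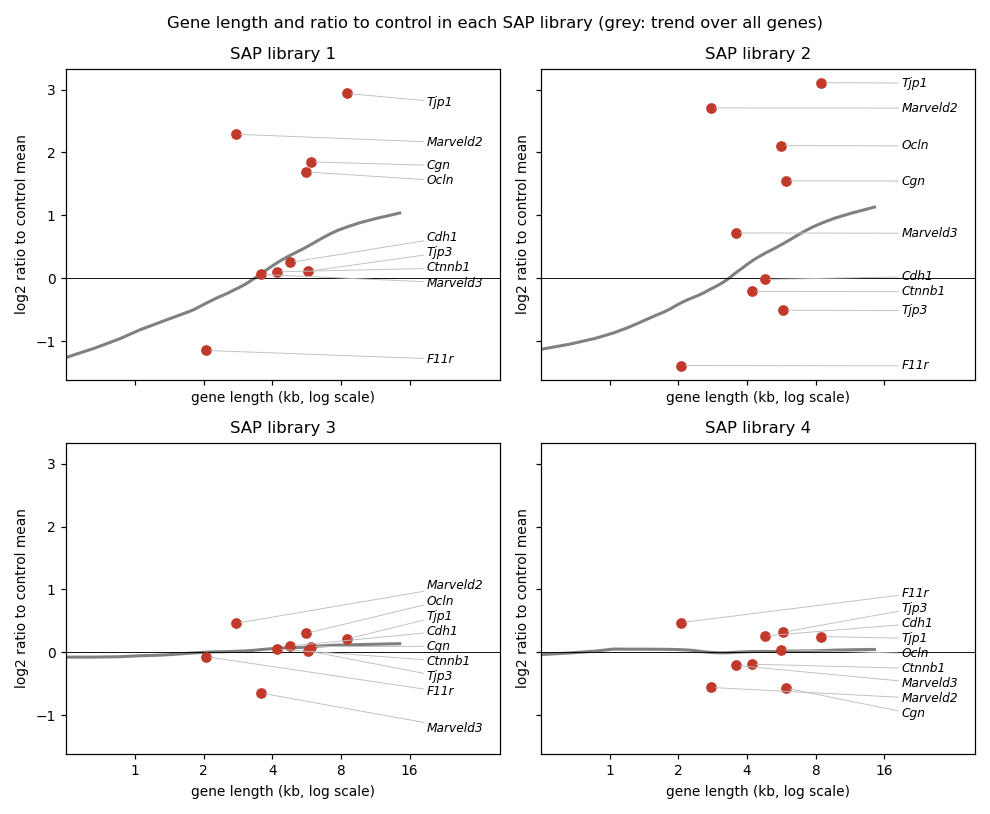
Log2 ratio of normalised counts to the control mean (vertical axis) against gene length in kb (horizontal log axis) for the 9 junction genes in each SAP library, with the trend over all genes as a grey line. In SAP libraries 1 and 2 Ocln and Cgn lie above the trend while Tjp3 of like length lies below it (0.11 and -0.51), and Marveld2 lies at 2.29 and 2.71 where the trend is below 0, whereas in SAP libraries 3 and 4 the trend is nearly flat.

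Other cell types were read from their markers, in summed FPKM. The 20 epithelial markers summed to 30553 to 32079 in control, 12781 to 25184 in SAP and 11519 to 21163 in JZL184. They were lowest in JZL184 library 3 (0.368 of the control mean) and in SAP libraries 1 and 2 (0.410 and 0.408). In SAP libraries 1 and 2 the higher values of Ocln, Marveld2, Tjp1 and Cgn came with low sums of epithelial markers. JZL184 library 3, with the lowest sum, held 26.3, 0.65, 1.3 and 29 FPKM of these genes in the same order. Of the 20 markers, 2 had a log2 fold change above 0 in SAP against control. Cdh17 was at 278 and 277 FPKM in SAP libraries 1 and 2, against 107 and 109 in the control samples. Epcam was at 3059 and 2220 FPKM there, against 3113 and 3814 in the control samples, and Vil1 at 319 and 372, against 495 and 261. The low sum was thus not shared equally by all epithelial markers. The trend over gene length was not removed from any of these sums. Smooth muscle markers ranged from 1952 to 2154 in control, 949 to 2119 in SAP and 398 to 2169 in JZL184. Fibroblast markers reached 225 in SAP library 2, against 89.2 to 109 in control, 82.7 to 225 in SAP and 48.9 to 112 in JZL184. The markers of this list did not all move together. Col1a1 was at 8.22 and 7.78 FPKM in SAP libraries 1 and 2, below the 18.6 and 21.3 FPKM of the control samples. In SAP against control, 6 of the 8 fibroblast markers had a log2 fold change above 0. Leukocyte markers summed to 196 to 204 in control, 128 to 229 in SAP and 153 to 400 in JZL184, highest in JZL184 library 2, the library in which F11r was highest and Cgn lowest. Of the 400 FPKM in that library, the neutrophil genes S100a8 and S100a9 gave 149 and 95.6. Ptprc, a further leukocyte marker, was at 2.79 FPKM there and at 32 FPKM in SAP library 2, where the leukocyte sum was lowest.

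Endothelial markers summed to 39.4 to 40.8 in control, 41.2 to 54.6 in SAP and 36.9 to 56.9 in JZL184. Enteric neuron and glia markers summed to 16 to 16.7, 13.9 to 23.4 and 21.8 to 32.1 in the same order. Exocrine pancreas markers, of which 6 of 8 were found, summed to at most 11.7 FPKM. None of the markers found was at 0 in all samples, and the part of cell composition in the junction gene values was not tested. Set relative to the geometric mean of the epithelial markers, Tjp1 was at 19.8, 20.5, 1.99 and 1.35 times the control mean in SAP libraries 1 to 4, Marveld2 at 13, 16, 2.44 and 0.809 times and Ocln at 8.22, 10.1, 2.1 and 1.16 times. In FPKM without that division, Tjp1 was at 11.1 and 12.8 in SAP libraries 1 and 2, against a control mean of 1.17. On normalised counts, which are a different scale, Tjp1 was at 7.69 and 8.66 times the control mean in these libraries. The divisor was lower in each SAP and JZL184 sample (154 to 365 FPKM) than in both control samples (387 and 437 FPKM), so a gene of equal FPKM lies above 1 on the epithelial scale. The trend over gene length was not removed from this scale. Cdh1 was above the control mean in each SAP library, at 3.08, 2.35, 1.86 and 1.38 times, and in each JZL184 library, at 1.88, 2.36, 3.74 and 2.98 times, and Tjp3 was above it in each as well, at 1.22 to 2.83 times. Marveld3 was at 0.831, 0.782, 1.81 and 1.01 times in JZL184, so its lower level there did not hold in each library relative to epithelial markers.

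**Figure D4:**
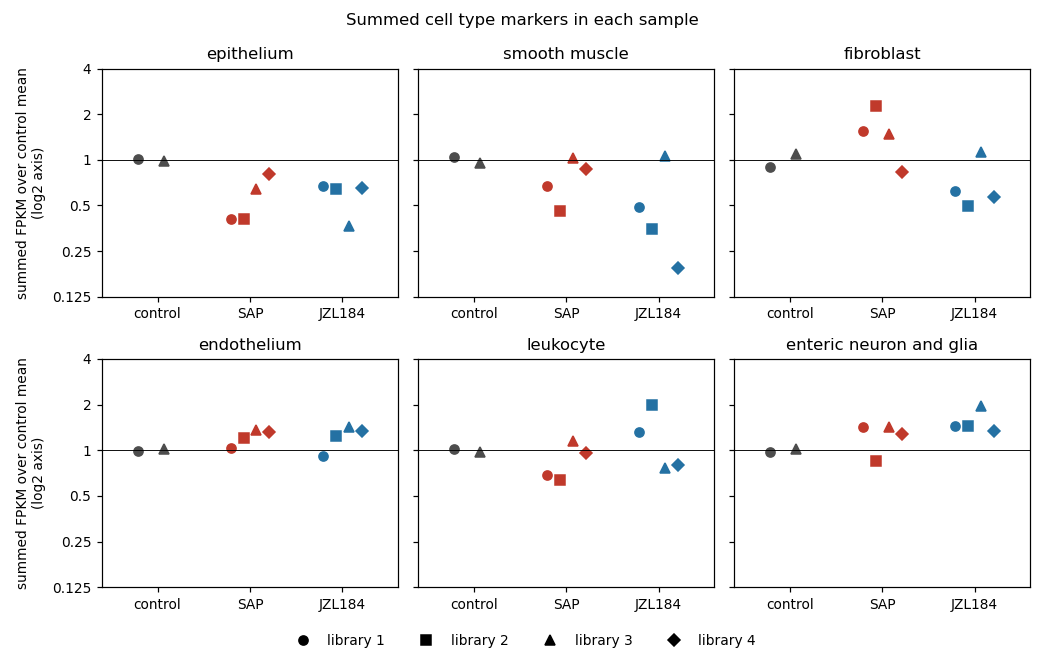
Summed FPKM of marker genes of 6 cell types relative to the control mean (vertical log2 axis), by group, with marker shape giving the library number and the first control marker giving libraries 1 and 2 averaged. Epithelial markers are at 0.410 and 0.408 in SAP libraries 1 and 2 and at 0.368 in JZL184 library 3, and leukocyte markers reach 2 in JZL184 library 2. Of the 400 FPKM in that leukocyte sum, S100a8 gave 149 and S100a9 95.6. The trend over gene length was not removed from the sums.

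Partners of these genes were counted in lists by role. Of 30 further tight junction genes tested, such as the polarity proteins and ZO-2, 0 were called in any of the 3 comparisons, with median log2 fold changes of 0.39 in SAP against control, -0.27 in JZL184 against SAP and 0.17 in JZL184 against control. The 22 further adherens junction genes gave 0 calls and medians of 0.51, -0.32 and 0.12. The medians of all genes were 0.06, -0.05 and 0.08. The scaffold Magi1, with the smallest p of the tight junction list, was at 1.50 ± 0.36 (log2 fold change ± SE, adjusted p = 0.0656) in JZL184 against control, and the polarity protein Pard6b was at 1.45 ± 0.39 (adjusted p = 0.0775). Of the adherens junction list talin (Tln1) was at -0.91 ± 0.28 (adjusted p = 0.099).

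Desmosomes, the spot contacts anchored to keratin filaments, gave the only calls among the junction lists. In JZL184 against control 2 of 13 genes were called lower and 0 higher, beside 2.16% of all genes called in either direction. The median log2 fold change was -0.44, and 6 of the 13 were above 0. Evpl, envoplakin, a plakin that binds keratin filaments, measured 23.7 and 13.3 FPKM in the control samples, 22.6, 14.2, 16.7 and 10.9 in SAP and 4.92, 0.94, 1.81 and 1.18 in JZL184, below both other groups in each JZL184 library. It fell with a log2 fold change of -3.17 ± 0.59 (SE, adjusted p = 0.0406) and was called in 14 of 18 alternatives. Krt19, a keratin of simple epithelia, measured 4740 and 3682 FPKM in control and 1350 to 1503 in JZL184, and fell with a log2 fold change of -1.59 ± 0.30 (adjusted p = 0.0418, called in 13 of 18 alternatives). SAP libraries 1 and 2, at 1377 and 1239 FPKM, lay within or below the JZL184 range for Krt19 and SAP libraries 3 and 4, at 2904 and 3190, above it. In the other comparisons 0 of the 13 were called. Both calls were lost without either control sample or without JZL184 library 2 or 4. The adjusted p of Evpl was then 0.503 without control libraries 1 and 2, 0.162 without control library 3, 0.094 without JZL184 library 2 and 0.0868 without JZL184 library 4, and that of Krt19 was 0.529, 0.168, 0.0662 and 0.117. The log2 fold changes stayed between -3.87 and -2.62 for Evpl and between -1.82 and -1.34 for Krt19 whichever library was left out. Over all genes 0, 1, 25 and 78 calls were left in these analyses.

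Regulators and targets of beta-catenin, which set how much Ctnnb1 protein is free to signal, gave 0 calls of 20 in each comparison, with medians of 0.56, -0.26 and 0.37. The kinase Gsk3b was at 1.18 ± 0.31 and the target cyclin D1 (Ccnd1) at -1.36 ± 0.37 in JZL184 against control (adjusted p = 0.0756 and 0.0807). Of 21 genes of the actomyosin ring that tenses the junction 0 were called, with medians of -0.10, -0.32 and -0.17, and the kinases Rock2 and Rock1 were at 0.72 ± 0.28 and 1.02 ± 0.52 (adjusted p = 0.156 and 0.253). Rock2 split the SAP group as Tjp1 did, with 24.7, 30, 2.68 and 2.46 FPKM in SAP libraries 1 to 4. Of 16 transcription factors that act on junction genes 0 were called, with medians of 0.28, -0.11 and 0.35. Hnf4a, a factor of the epithelial programme, was at -1.08 ± 0.40 and Zeb2, a repressor of Cdh1, at 1.26 ± 0.49 (adjusted p = 0.137 and 0.149). Hnf4a also split the SAP group, with 132, 125, 59.4 and 53.9 FPKM. The split was not particular to Rock2 and Hnf4a. In the same order Rock1 was at 39.6, 48.9, 3.81 and 2.93 FPKM, Zeb2 at 9.17, 11.7, 1.66 and 0.95 and Gsk3b at 3.89, 4.96, 1.38 and 1.02. Ccnd1, at 12.6, 15.5, 13.6 and 7.43 FPKM, did not split the group in this way.

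The neutrophil gene S100a9, of the leukocyte list, was at 6.05 ± 1.39 in JZL184 against control (adjusted p = 0.0624). Among the marker lists, calls were again limited to JZL184 against control and all were lower, with the epithelial genes Krt19 and Cldn15, the smooth muscle gene Smtn and the fibroblast gene Col1a1. The log2 fold changes were -2.40 ± 0.49 for Cldn15, -1.84 ± 0.36 for Smtn and -2.49 ± 0.50 for Col1a1 (adjusted p = 0.0489, 0.0461 and 0.0462). These 3 calls were also lost without either control sample (adjusted p between 0.177 and 0.529) and without JZL184 library 2 (0.105 to 0.108) or 4 (0.0619 to 0.0809). The medians of the epithelial list were -0.68 in SAP against control, 0.26 in JZL184 against SAP and -0.44 in JZL184 against control.

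The members fell into steady and variable genes when their centred profiles of log2(FPKM + 0.1) were compared over the 10 samples. The closest pairs were Tjp3 and Cdh1, with a root mean square difference of 0.29 log2 units, Tjp3 and Ctnnb1 at 0.38 and Cdh1 and Ctnnb1 at 0.41. Tjp1 was closest to Marveld2 (0.43) and Cgn (0.51), and farthest from F11r (1.87). Among all 11092 genes with a mean FPKM of at least 1, the profile most like that of Ocln was that of Ifnlr1 (0.14), of Tjp1 that of LOC680039 (0.19) and Caprin1 (0.21), of Marveld2 that of Vcl (0.22), of Cgn that of Atp6v0a2 (0.23), and of F11r that of LOC100361240 (0.28). Tjp3 was nearest to Mapkapk3 (0.14), Cdh1 to Cflar and Riok1 (both 0.12), Ctnnb1 to Stx12 and Mak16 (both 0.14) and Marveld3 to Arid3b (0.21). Of the 18 genes found nearest, 9 were the same with a pseudocount of 1.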

How the data were processed

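Total RNA of rat ileum was sequenced as stranded, paired-end mRNA libraries. The authors aligned reads to mRatBN7.2 with HISAT2 and deposited a read count per gene, without normalisation, and FPKM with 2 decimals. For the counting tool and the annotation, nothing was given in the sources used here. Per library, 26341299 to 33847135 reads lay on genes, and counting error was small for all members but Marveld2. The 9 genes and all lists were chosen with earlier results of these data known. Reads of control libraries 1 and 2 were summed and their FPKM averaged.

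Pairs of groups were compared in edgeR 4.0.16 (R 4.3.3) by its quasi-likelihood test, after TMM normalisation and filterByExpr (minimum count 10), with Benjamini-Hochberg adjustment over all genes. A call needed an adjusted p under 0.05 together with a fold over 2 or under 0.5. The tests were checked on simulated data. p-values measure the spread between these samples, and where control libraries 1 and 2 were kept separate they count 2 very similar libraries as 2 samples. Means ± SD are of FPKM, with n samples. Per-library ratios used CPM (reads scaled to TMM library sizes). Gene length was derived from the counts and FPKM, and length trends were fitted with loess (span 0.3). The epithelial scale divides FPKM by the geometric mean of the markers' FPKM plus 0.1.

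Alternatives were separate control libraries, DESeq2 1.42.0, limma-voom with quality weights (limma 3.58.1), DESeq2 size factors, other count filters, a joint fit of 3 groups, no fold threshold, the replicate number as a block, length offsets, SAP libraries 3 and 4 alone (chosen after seeing the data) and leaving out each library. Besides the 9 genes, called genes of each list were named (at most 4), or the 2 with the smallest p in JZL184 against control where none was called, and the 2 profiles most like each gene. For some lists and genes fewer of these are printed, and some items are not reported here. Rock1, Rock2, Gsk3b, Zeb2 and Hnf4a fell under this rule, and their split in SAP was noticed after the values were seen. Python 3.11.15, numpy 2.4.6, pandas 2.3.3 and matplotlib 3.10.9 were used for tables and plots.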

Additional observations from a re-analysis of the deposited data

How the results depend on the processing

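The number of junction genes called was 0 in every comparison and in each analysis that left out a library (lowest 0, highest 0). It became 1 in SAP against control with DESeq2 and separate control libraries (1434 of all 23265 genes called), and 1 in JZL184 against SAP with DESeq2 (1283 of 23991), each time Tjp1. The replicate numbers did not pair the samples: deviations of same-numbered samples correlated at 0.14, -0.47, -0.01 and -0.11 in JZL184 against SAP, so a replicate block is given here only. With the block and separate control libraries, calls over all genes went from 33 to 1 in SAP against control and from 2800 to 1488 in JZL184 against control, 0 of the 9 genes were called, and these log2 fold changes turned sign: Tjp3 (-0.09) and Ctnnb1 (0.11) in SAP against control and Tjp3 (-0.12) in JZL184 against control. The block with length offsets gave -0.06 for Marveld3, -0.57 for Tjp3 and -0.17 for Cdh1 in SAP against control, 0.03 for Ctnnb1 in JZL184 against SAP, and -0.27 for Tjp3 and -0.23 for Tjp1 in JZL184 against control. Length offsets alone gave -0.23 for Tjp3 and -0.04 for Cdh1 in SAP against control, 0.05 for Ctnnb1 in JZL184 against SAP and -0.14 for Tjp1 in JZL184 against control. Separate control libraries gave 0.05 for Ctnnb1 in SAP against control (0.04 with DESeq2) and -0.01 for Marveld2 in JZL184 against control (-0.04 with DESeq2). limma-voom gave -0.14 for Marveld3 in SAP against control and -0.31 for Marveld2 in JZL184 against control, and a minimum of 10 reads in every library gave 0.00 for Ctnnb1 in SAP against control. With SAP libraries 3 and 4 alone, Marveld3 was at -0.39, F11r at 0.26 and Cgn at -0.17 in SAP against control, and Ocln at 0.58, Tjp3 at -0.05 and Marveld2 at 0.02 in JZL184 against SAP. The causes of these turns were not tested. Leaving out 1 library moved F11r between -0.71 and 0.05, Tjp3 between -0.08 and 0.20, Marveld3 between -0.19 and 0.32 and Ctnnb1 between -0.14 and 0.13 in SAP against control. It moved Tjp3 between -0.06 and 0.26 and Ctnnb1 between -0.19 and 0.08 in JZL184 against SAP. In JZL184 against control it moved Tjp3 between -0.03 and 0.29, Marveld2 between -0.33 and 0.35, Ctnnb1 between -0.26 and 0.05, Tjp1 between -0.02 and 0.31 and F11r between -0.01 and 0.86. Values of Ocln, Cdh1 and Cgn kept their sign when any 1 library was left out.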
